A study of Drosophila melanogaster x Drosophila sechellia and Drosophila melanogaster and Drosophila sechellia with 12 samples.

Results

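The D. sechellia allele of each RNA editing site was followed in a hybrid cell and in its own species. The sites were those with at least 50 reads of the D. sechellia sequence in each of 5 libraries, 3 from F1 hybrids and 2 from D. sechellia, which held for 636 of the 1058 sites in the tables. They were chosen by coverage alone, so no editing value entered the choice. At each site the editing level is the percentage of G among the A and G reads assigned to the D. sechellia sequence.

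Heads of female flies, 0 to 2 days after becoming adults, had been profiled by mmPCR-seq, a method that amplifies a large panel of editing loci from cDNA by multiplex PCR on a microfluidic chip before deep sequencing. The F1 hybrids (n = 3) came from crosses of D. melanogaster with D. sechellia, an island species closely related to it. The mixed parents (n = 2) were a mixture of both parent species, and D. sechellia (n = 2) and D. melanogaster (n = 2) were the parents alone. The labels name no stock, and none of these 4 groups is labelled with an Adar mutation. Whether each replicate was a separate pool of flies is not stated, so the spread between libraries may be technical only. The p-values of single sites rest on that spread, borrowed in part across sites, and on the counting error of reads. None is known to measure the spread between pools of flies.

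Adar, the fly's single RNA editing enzyme of this kind, binds double-stranded RNA and deaminates adenosine to inosine, which is read as G. The duplex is folded from the transcript itself, often from an exon and a stretch of neighbouring intron, so an allele carries its own substrate with it. The abundance of Adar and of proteins that act on it belongs to the cell and is shared by both alleles of a hybrid. In fly heads many edited transcripts encode ion channels and proteins of the synapse. The tables pair sites with positions of the dm3 build and with no gene, so sites are named here by chromosome arm and position.

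The X chromosome held 103 of the 636 sites, arm 3R held 173, arm 2R 145, arm 3L 106, arm 2L 100 and chromosome 4 held 9. Sites within 1000 bases of the next formed 185 clusters, of which 59 held a single site and the largest held 19. Sites of a cluster can lie on the same reads and are not independent. The D. sechellia sequence had a median of 123 to 141.5 reads per site in the F1 libraries, 118 and 131.5 in the mixed parents, and 323 and 286 in D. sechellia. All 7 libraries reached 50 such reads at 615 of the sites. In the 2 D. melanogaster libraries together, 0.430% of the reads at these sites had been assigned to the D. sechellia sequence. In the D. sechellia libraries, 0.575% had gone to D. melanogaster. Coverage differed between the libraries of each group by more than sampling noise (chi-square per degree of freedom 1.16 to 3.05).

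Mean levels of the D. sechellia allele differed between the hybrid and D. sechellia by less than the libraries of each group differed among themselves. In whole heads, a different mix of cells and a different level per cell cannot be told apart. The mean over the 636 sites was 18.8%, 17.7% and 18.3% in the F1 libraries, against 18.2% and 19.3% in the D. sechellia libraries. The F1 values overlapped with the D. sechellia values, 1 F1 library lying below both, with a group mean of 18.2% ± 0.579 (SD, n = 3) against 18.7% ± 0.809 (n = 2). The difference of -0.4999 percentage points was smaller than the spread between replicates (exact two-sided permutation test, p = 0.6, where 3 against 2 libraries allow no p below 0.1). It was -1.07 points without D. sechellia replicate 1 and 0.0721 points without replicate 2. Over the 615 sites also covered in the mixed parents, the 3 means were 18.5% ± 0.553 in F1, 18.4% ± 0.763 in the mixed parents and 19.04% ± 0.811 in D. sechellia. Exact permutation tests of the 3 pairs all had adjusted p = 0.8, the smallest raw p being 0.6. For mixed parents against D. sechellia, 2 against 2 libraries allow no p below 0.333 in this test, so it could not have passed.

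**Figure D1:**
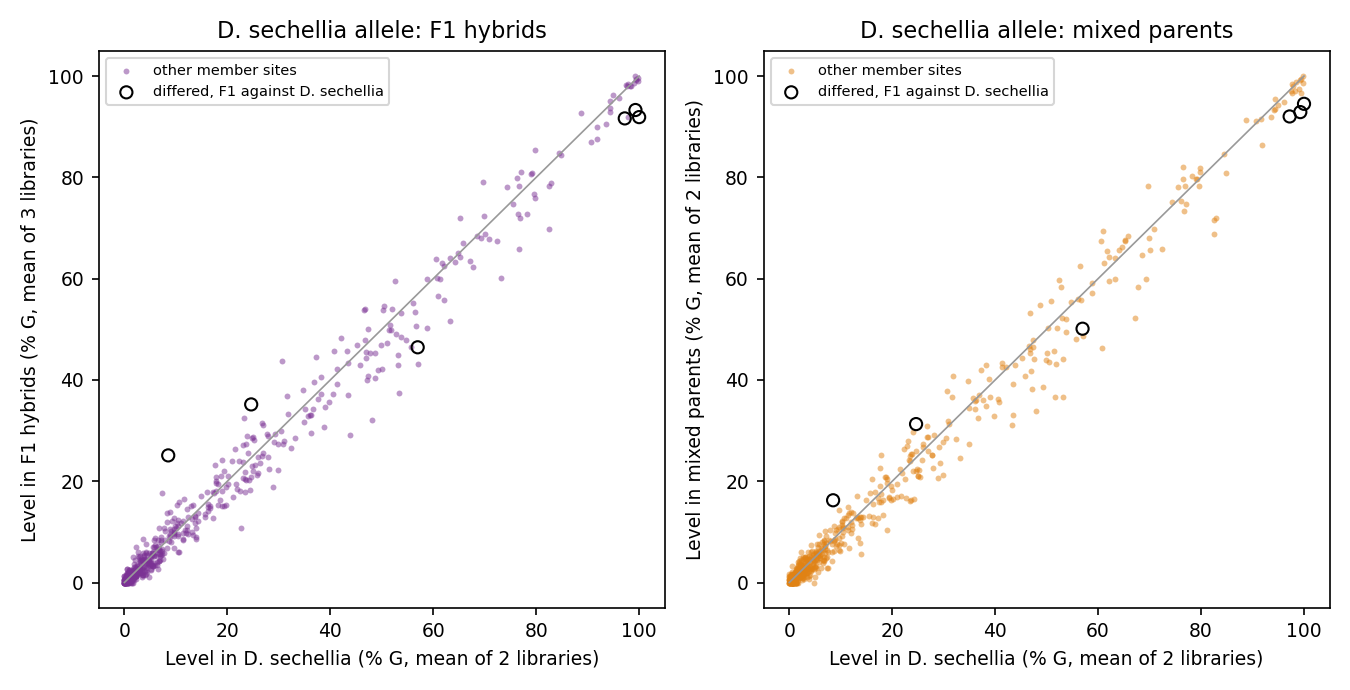
Editing level of the D. sechellia allele at each site (% G), in F1 hybrids (left, 636 sites, mean of 3 libraries) and mixed parents (right, 615 sites, mean of 2 libraries), each against D. sechellia (mean of 2 libraries); the line marks equal levels. Circles mark the 6 sites that differed between F1 and D. sechellia, and in the right panel these lie on the same side of the line as in the left.

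Site by site, the comparison asks whether a given adenosine of the D. sechellia allele is edited differently once the allele sits in a hybrid nucleus. A level of at least 1% on average was reached at 495 of the 636 sites, and these were tested by quasi-binomial logistic regression of the G and A counts, with Benjamini-Hochberg adjustment. Of the 495 sites, 6 differed (1.21% called), with 2 higher in F1 (0.404%) and 4 lower (0.808%). The 6 lay in 6 different clusters. The median absolute difference was 1.46 percentage points, 90% of sites differed by less than 5.51 points, and 61 sites differed by over 5 points. The unadjusted p was under 0.05 at 53 sites, 21 higher and 32 lower in F1. Libraries of F1 and D. sechellia did not overlap at 129 sites (26.1%), with the F1 values higher at 50 (10.1%) and lower at 79 (16%). With so few libraries, such separation is common even without a difference between groups. It was found at 105 of 490 sites for F1 against mixed parents and at 178 of 492 for mixed parents against D. sechellia.

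The calls rested on few libraries. Without D. sechellia replicate 1, or without replicate 2, no site passed, with 44 and 51 sites at an unadjusted p under 0.05. Without any 1 of the 3 F1 libraries, X 2006388 was the single site left, and limma on arcsine-transformed levels also called that site alone. With reads thinned to equal numbers none of the 6 passed, although their differences ran from -12.4 to 20.6 points in unchanged directions. When the fit left out sites reaching 95% G in either parent, 3L 9148318, 3L 9662026 and X 14992625 kept their differences but had adjusted p-values of 0.0652, 0.0652 and 0.115.

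Higher in the hybrid was 3L 9148318. Its D. sechellia allele was edited at 22.2%, 27.6% and 25.5% in F1, at 12.6% and 19.8% in the mixed parents, and at 4.46% and 12.6% in D. sechellia. All F1 libraries stood above all others, and both mixed libraries stood above the D. sechellia mean. The difference from D. sechellia was 16.6 points (log odds 1.33 ± 0.278 SE, quasi-binomial test, adjusted p = 0.01898). That from the mixed parents was 8.86 points (log odds 0.52 ± 0.228 SE, adjusted p = 0.821). The D. melanogaster libraries were edited at 9.20% ± 0.583 (SD, n = 2) there. The mean F1 level lay above the means of both parents, and so did both mixed libraries, which hold no hybrid flies. The neighbour 3L 9148285, 33 bases before it, averaged 27.8% ± 1.61 in F1 and 29.1% ± 4.80 in D. sechellia.

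Also higher was 3L 9662026, with 32.9%, 39.9% and 32.7% in F1, 27.2% and 35.4% in the mixed parents, and 23.0% and 26.3% in D. sechellia. The F1 libraries lay above the D. sechellia libraries but overlapped with the mixed parents (adjusted p = 0.0251 against D. sechellia and 0.821 against the mixed parents, quasi-binomial test). The D. melanogaster level was 15.7% ± 1.09 (n = 2), on the far side of D. sechellia. Further along, 3L 9662076 averaged 79.1% ± 2.92 in F1, 78.2% ± 11.7 in the mixed parents and 69.8% ± 4.05 in D. sechellia, and did not pass.

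Lower in the hybrid at an intermediate level was X 14992625. It stood at 50.7%, 41.4% and 47.2% in F1, at 48.3% and 51.9% in the mixed parents, and at 57.0% and 57.0% in D. sechellia. The F1 and mixed libraries overlapped, and both groups lay below D. sechellia, whose replicates had an SD of 0.0283 points. The adjusted p was 0.0485 against D. sechellia and 0.821 for F1 against the mixed parents. Both other sites of its cluster were also lower in F1 without passing: X 14992526 averaged 37.1% ± 2.91 in F1, 39.1% ± 5.26 in the mixed parents and 43.5% ± 1.82 in D. sechellia.

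The remaining 3 calls read as G in nearly every D. sechellia read. At X 2006388 no A read was found among 384 and 334 reads of D. sechellia, while F1 stood at 88.1%, 93.8% and 93.8% and the mixed parents at 96.1% and 93.0%. Against D. sechellia this was the call with the lowest adjusted p in F1 (0.000676), and it was the single call in the mixed parents (0.00167). At 3R 14733513 the levels were 92.5%, 90.7% and 91.7% in F1, 93.0% and 91.1% in the mixed parents, and 97.2% and 97.2% in D. sechellia (adjusted p = 0.00883 for F1). X 4253674 stood at 97.7%, 89.7% and 92.5% in F1, at 94.2% and 91.6% in the mixed parents, and at 99.0% and 99.5% in D. sechellia (adjusted p = 0.0485 for F1). F1 and mixed libraries overlapped at all 3 sites and lay below D. sechellia. D. melanogaster was edited at 14.8% ± 4.13, 2.19% ± 0.0517 and 0.588% ± 0.264 (n = 2) at these sites, taken in the same order. Without the genome sequence of the stocks, a genomic G and a fully edited adenosine give the same reads there.

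**Figure D2:**
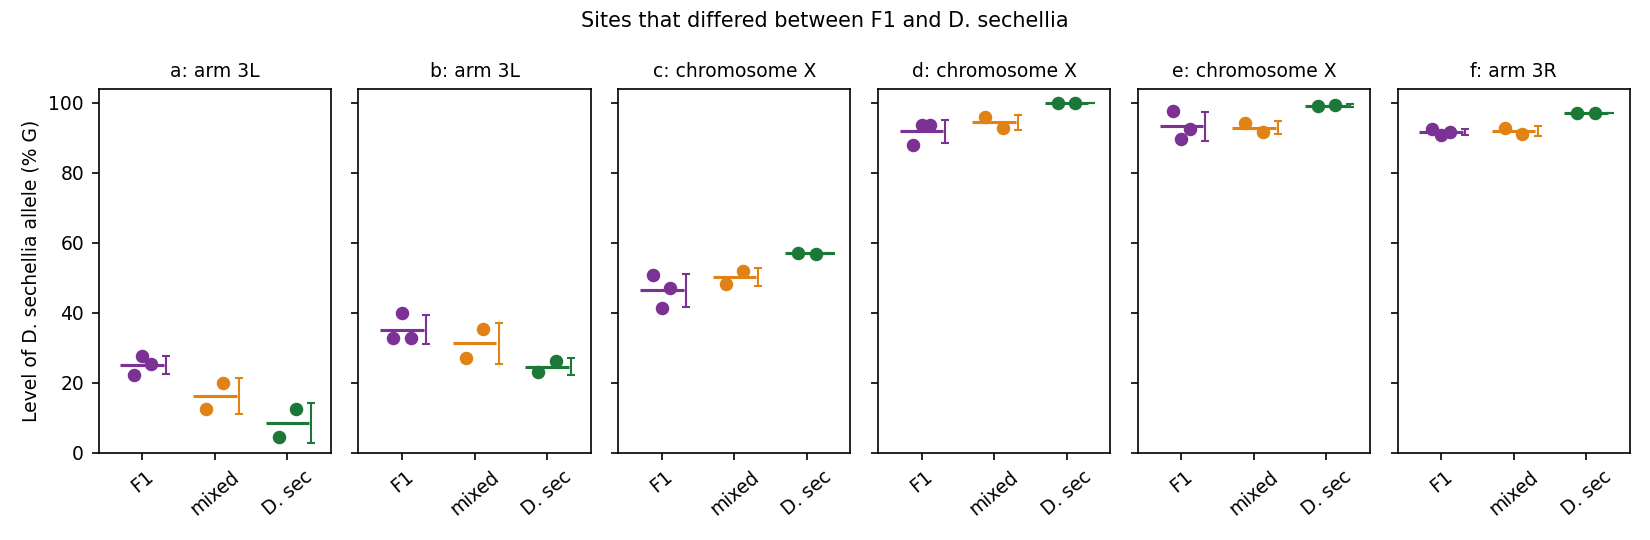
Level of the D. sechellia allele (% G) in each library at the 6 sites that differed between F1 and D. sechellia; points are libraries, lines are group means and bars are SD (F1 n = 3, mixed parents n = 2, D. sechellia n = 2). The sites are a, 3L 9148318; b, 3L 9662026; c, X 14992625; d, X 2006388; e, X 4253674; f, 3R 14733513, and in each panel the mixed parents lie between F1 and D. sechellia or beside F1.

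The mixed parents give the read-assignment control, because there the D. sechellia allele came from D. sechellia flies and was sequenced together with D. melanogaster reads, as in the hybrid. Set against D. sechellia alone, 1 of 492 sites differed in the mixed parents (0.203%), X 2006388, and 35 had an unadjusted p under 0.05. The median absolute difference, 1.40 points, was of the size found for F1. Set against the mixed parents, 0 of 490 sites differed in F1 (0%) by the quasi-binomial test, by limma and by Fisher's exact test on pooled counts, and 21 had an unadjusted p under 0.05. The median absolute difference was 1.65 points, and 255 sites were higher and 235 lower in F1. The 95% interval of the log odds lay within a change of 2-fold either way at 149 of these 490 sites (30.4%). At the others, the interval reached past 2-fold or could not be fitted. With F1 set against D. sechellia and the mixed parents as a single group, the quasi-binomial test and limma called 0 of 488 sites (0%), Fisher's exact test on pooled counts called 13, and 50 had an unadjusted p under 0.05. F1 and the mixed parents are each set against the same 2 D. sechellia libraries, so their differences from D. sechellia are not independent.

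Distances between single libraries overlapped within and between groups. Over 475 sites averaging from 1 to 95%, the mean absolute difference was 3.23 to 3.49 points between F1 libraries, 3.36 between the mixed libraries and 2.78 between the D. sechellia libraries. Between groups it was 3.33 to 3.79 for F1 and mixed parents, 3.08 to 3.73 for F1 and D. sechellia, and 2.87 to 3.62 for mixed parents and D. sechellia. The D. sechellia libraries held more reads of this sequence. With reads thinned to equal numbers at each site, the distance was 3.47 to 3.88 points within F1, 3.80 within D. sechellia and 3.48 to 4.17 between F1 and D. sechellia. The thinned distance was 3.53 to 3.97 points between F1 and mixed parents. These ranges overlapped, although most of the thinned distances between F1 and D. sechellia exceeded the largest within F1. The correlation of levels across sites was 0.974 to 0.983 for F1 and mixed libraries and 0.977 to 0.986 for F1 and D. sechellia libraries. These correlations are across sites of shared clusters and are given as a description. Read numbers per site followed the library type more closely, with a correlation of log reads of 0.926 to 0.949 for F1 and mixed libraries and 0.709 to 0.820 for F1 and D. sechellia libraries. The part of coverage in the levels was not tested beyond the thinned reads.

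**Figure D3:**
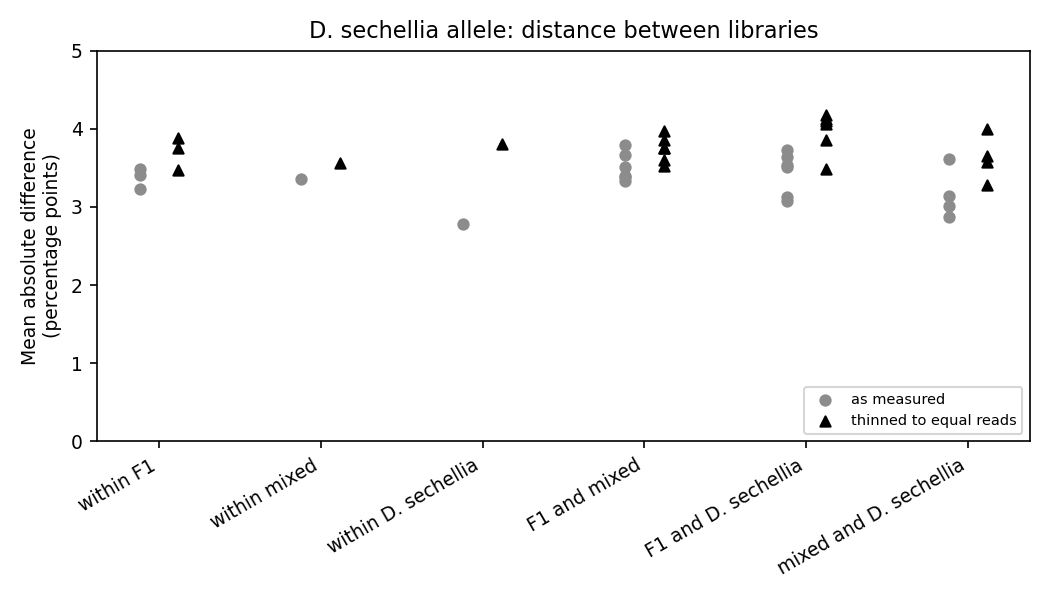
Mean absolute difference in level of the D. sechellia allele (percentage points, 475 sites) for each of the 21 pairs of libraries, grouped by kind of pair; circles are levels as measured and triangles are levels after thinning to equal reads. Thinned distances within groups (3.47 to 3.88 points) overlap with those between F1 and D. sechellia (3.48 to 4.17 points).

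Differences between groups and the spread between replicates both varied with the level. Sites were grouped by the mean over the 5 F1 and D. sechellia libraries. At 141 sites under 1%, the median absolute difference between F1 and D. sechellia was 0.236 points. It was 0.748 points at 171 sites from 1 to 5%, 1.63 at 136 sites from 5 to 20%, 3.30 at 100 sites from 20 to 50%, 3.70 at 57 sites from 50 to 80%, and 0.842 at 31 sites above 80%. The median SD between F1 libraries in these groups was 0.494, 1.08, 2.25, 4.07, 3.15 and 1.21 points, in the same order. Between D. sechellia libraries, which held more reads, it was 0.272, 0.614, 1.33, 2.51, 3.27 and 0.710 points. The median absolute difference between mixed parents and D. sechellia was 0.339, 0.849, 1.76, 2.94, 2.64 and 1.12 points. All of these measures were smallest under 1% and largest between 20 and 80%. In the 20 to 50% group, 64 sites were lower and 36 higher in F1, with a median difference of -2.20 points. At the 97 of these sites covered in the mixed parents, the mixed parents were also lower than D. sechellia, by a median of -1.48 points, and F1 stood 0.944 points above the mixed parents. No group's tendency was tested by itself. By chromosome arm the median difference ran from -0.435 points on 2R to -0.0217 points on 3R, with -0.248 points on X.

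**Figure D4:**
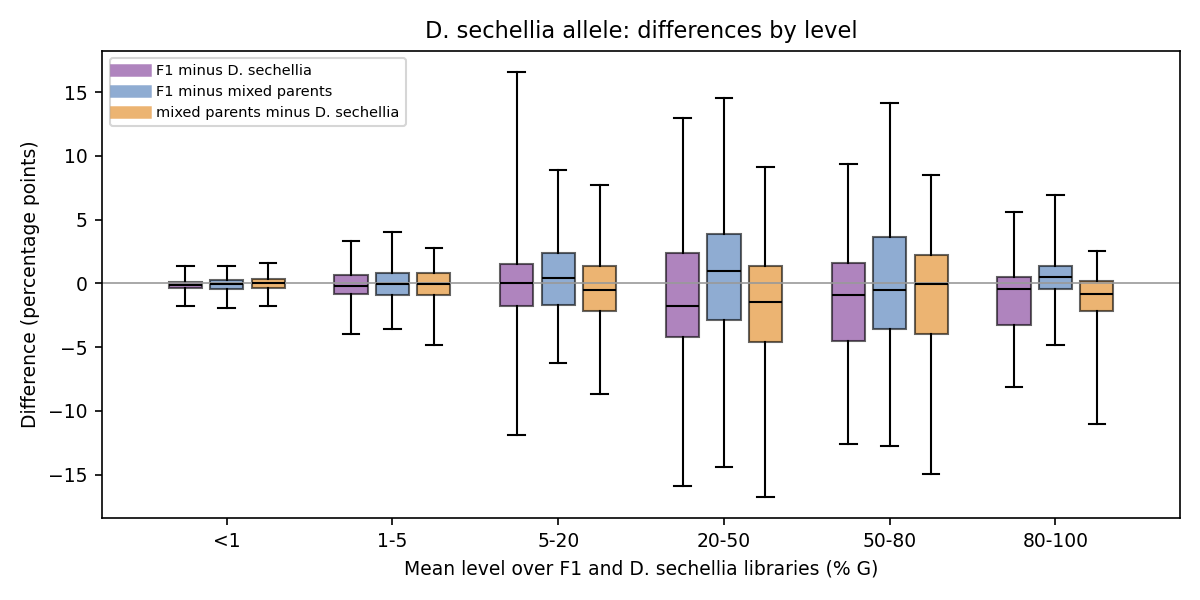
Differences in level of the D. sechellia allele (percentage points) at the 615 sites covered in all 7 libraries, by mean level over F1 and D. sechellia libraries; boxes span the quartiles with the median as a line, and whiskers reach the lowest and highest site. Medians of F1 minus mixed parents lie between -0.535 and 0.944 points in every level group.

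The sites under 1% were not tested. Of these 141, 6 showed no G read in any of the 5 libraries. X 13608132 had the most reads among them, with 0 of 516 in F1, so that its level could be up to 0.581%, and 0 of 820 in D. sechellia, where it could be up to 0.366%. At 1 of the 6, 2L 19509491, the mixed parents held 4 G reads. Such limits cover counting error only, since PCR reads without molecular identifiers are not independent molecules.

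At 108 sites the parent species differed by over 10 points, sites at 95% G or more included. The F1 level of the D. sechellia allele was nearer to D. sechellia at 97 of them and not nearer at 11. The same D. sechellia libraries served to choose these sites and to judge nearness, so a majority nearer to D. sechellia was favoured in advance. The mixed parents were not counted in this way. The sites described next were picked after their values were seen, as the 12 with the largest gap between the parents among sites under 95% G in both, so their D. sechellia levels served in the choice. All 12 lay nearer to D. sechellia in F1, and 7 are described. At 3L 21327037 the allele was edited at 6.85%, 5.68% and 7.53% in F1, at 7.14% and 8.24% in the mixed parents and at 6.92% and 6.45% in D. sechellia, while D. melanogaster stood at 69.0% ± 5.11 (SD, n = 2). The F1 libraries overlapped with both other groups there, while both mixed libraries lay above both D. sechellia libraries. At 3R 1062097 it was 0.830%, 0.465% and 1.37% in F1, 0% and 0.340% in the mixed parents and 0.825% and 0.186% in D. sechellia, against 45.9% ± 1.20 in D. melanogaster.

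On X, 1267594 was edited at 87.5%, 87.1% and 81.5% in F1, at 77.8% and 84.3% in the mixed parents and at 78.8% and 80.7% in D. sechellia, with D. melanogaster at 19.9% ± 1.61. The F1 libraries all lay above D. sechellia, away from the D. melanogaster level, without passing the test (adjusted p = 0.583). X 3847311 stood at 55.0%, 40.6% and 53.9% in F1, at 44.2% and 42.1% in the mixed parents and at 50.4% and 53.4% in D. sechellia, with D. melanogaster at 6.997% ± 0.628. Its F1 libraries spanned the range of the other groups. At 3R 1062051 the group means were 46.98% ± 7.64 in F1, 43.9% ± 0.349 in the mixed parents and 49.8% ± 2.38 in D. sechellia, with 17.9% ± 0.757 in D. melanogaster.

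The site 2R 17508581 was the exception in size among these. Its levels were 36.4%, 30.1% and 29.8% in F1, 29.9% and 37.9% in the mixed parents and 45.0% and 51.1% in D. sechellia, with D. melanogaster at 8.93% ± 0.359. F1 and mixed libraries overlapped, and both lay below D. sechellia on the side of D. melanogaster. The difference of -15.9 points from D. sechellia had an adjusted p of 0.0684, and that of -1.81 points from the mixed parents had an adjusted p of 0.966. No D. sechellia read was found at this site in the D. melanogaster libraries. At 2L 3762337 the F1 libraries were close together at 24.3%, 24.2% and 24.1%, above 19.7% and 19.5% in the mixed parents and 20.05% and 17.95% in D. sechellia (adjusted p = 0.256 against D. sechellia), with D. melanogaster at 61.5% ± 4.37.

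A comparison without shared libraries set F1 minus mixed parents beside the gap between D. melanogaster and D. sechellia alone. At 91 sites with a gap of over 10 points and under 95% G in both species, the F1 level was displaced from the mixed parents toward the D. melanogaster level at 51 and away from it at 40. The median displacement was 0.597 points toward D. melanogaster (quartiles -1.01 and 3.49), where the median gap between the species was 16.6 points. Without the limit on G, there were 106 sites with a gap of over 10 points, 58 displaced toward and 47 away, with a median of 0.465 points. At 485 sites with smaller gaps, also without that limit, 248 were displaced toward and 224 away, with a median of 0.0283 points. These are descriptions over sites that are not independent.

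Sites that read as G in at least 95% of D. sechellia reads were set apart, because A reads from the other allele would lower them. There were 16, and 5 of them had at most 20% in D. melanogaster. The 5 include the calls X 2006388, 3R 14733513 and X 4253674. Their medians therefore restate values that led to those calls and are no separate observation. The median over these 5 was 91.9% for F1 and 94.5% for mixed parents, against 99.3% for D. sechellia, with F1 below D. sechellia at 4 sites and the mixed parents below it at 5. The site of the 5 at which F1 was not lower was 3R 5296946, with 99.4% ± 0.962 in F1, 96.7% ± 2.34 in the mixed parents and 99.4% ± 0.238 in D. sechellia. At 8 sites where D. melanogaster also read at least 80% G, the medians were 98.6% in F1, 98.2% in the mixed parents and 98.7% in D. sechellia. At 4 sites with the reverse arrangement, at most 5% in D. sechellia and at least 95% in D. melanogaster, the highest level was 3.84% in F1, 2.29% in the mixed parents and 4.22% in D. sechellia. In the D. melanogaster libraries the D. sechellia sequence took a median of 0.229% of reads at the 5 sites first named. After subtraction of the D. sechellia reads expected from each site's own rate of such reads in the D. melanogaster libraries, a step added after the data were seen, 6 of 490 sites differed between F1 and D. sechellia. The part of read assignment within libraries that hold both species was not tested further.

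Among the sites that did not pass, 3 are given that were picked after their values were seen. At 3R 24424516 the levels were 35.7%, 39.0% and 37.7% in F1, 36.6% ± 16.3 (SD, n = 2) in the mixed parents and 54.7% and 51.8% in D. sechellia (adjusted p = 0.108 for F1 against D. sechellia). The mixed libraries stood on either side of F1. At 3L 20516600 they were 35.6%, 29.3% and 22.2% in F1, 38.2% and 47.8% in the mixed parents and 43.2% and 44.6% in D. sechellia. Here the mixed parents stood with D. sechellia and all F1 libraries lay below both (adjusted p = 0.102 against D. sechellia, 0.821 against the mixed parents). At 2R 3701368 F1 stood at 49.0%, 38.8% and 49.2%, the mixed parents at 29.7% and 32.7% and D. sechellia at 40.5% and 45.9%, which put the mixed parents below both other groups (lowest unadjusted p of F1 against mixed parents, 0.00492, adjusted 0.821).

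Neighbouring sites of a cluster held very different levels. The largest cluster, 19 sites over 187 bases of 2R from 20802211 to 20802397, ran from sites near 2% to 20802381 at 90.6% ± 1.10 in F1, 91.9% ± 0.0554 in the mixed parents and 93.6% ± 0.728 in D. sechellia. Its mean level was 27.4%, 28.5% and 28.7% in the F1 libraries, 30.1% and 30.9% in the mixed parents and 28.8% and 29.9% in D. sechellia. The F1 libraries all lay below the others, the highest of them next to D. sechellia replicate 1, and 11 of the sites were lower and 8 higher in F1 than in D. sechellia. At 20802352 in this cluster the levels were 21.9%, 23.0% and 22.6% in F1, 28.0% and 30.2% in the mixed parents and 27.6% and 28.6% in D. sechellia. That site and the other 18 did not pass (adjusted p = 0.279 there). In the 47 clusters with 5 or more sites, which held 366 sites, the median difference between F1 and D. sechellia ran from -2.43 to 2.28 points.

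**Figure D5:**
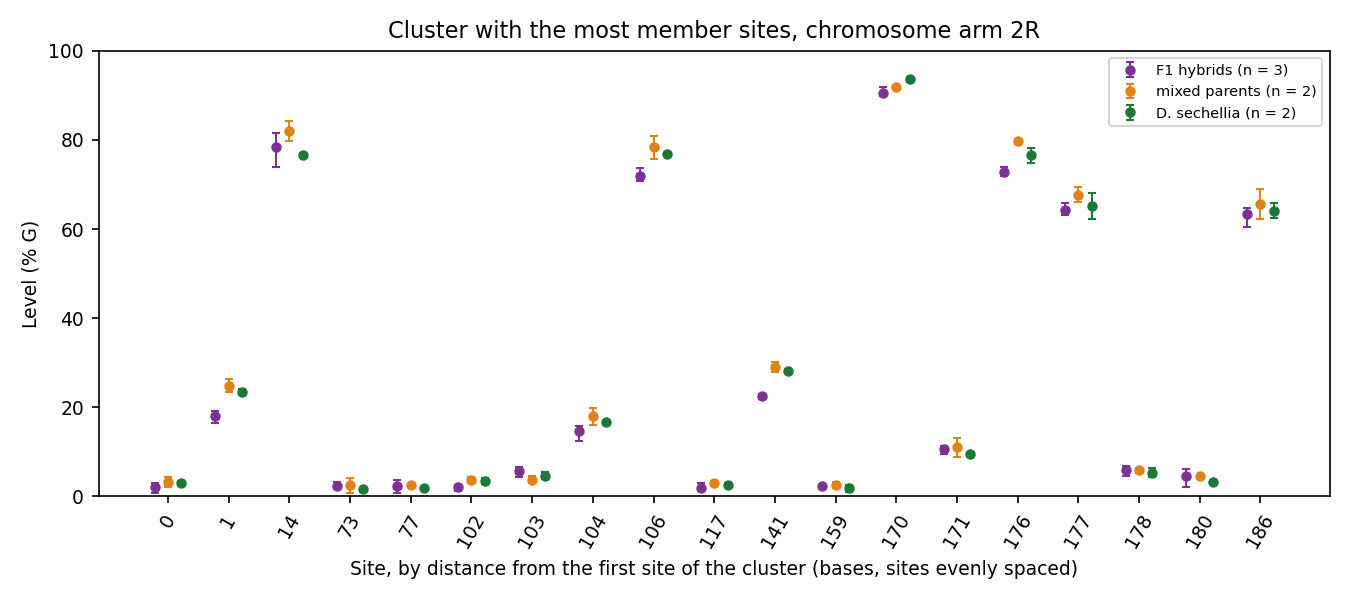
Level of the D. sechellia allele (% G) at the 19 sites of the largest cluster, in order and labelled by distance from the first site in bases; points are group means and bars reach the lowest and highest library (F1 n = 3, mixed parents n = 2, D. sechellia n = 2). Levels from near 2% to above 90% appear side by side in all 3 groups.

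In the clusters that held a call, no other site passed. Around 3R 14733513, the cluster held 10 sites, of which 4 were higher and 6 lower in F1. Its site 14733531 was at 98.7% ± 0.818 in F1, 97.5% ± 0.0869 in the mixed parents and 99.0% ± 0.415 in D. sechellia, and D. melanogaster also read 98.4% ± 0.420 G there. Next to X 2006388, the adjacent X 2006389 averaged 13.9% ± 2.90 in F1, 8.67% ± 2.33 in the mixed parents and 8.83% ± 0.878 in D. sechellia.

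Coverage near the minimum of 50 reads is described here without a test. At 20 sites whose lowest library held 50 to 54 reads, the median absolute difference between F1 and D. sechellia was 1.23 points, and at 12 sites just outside, with 45 to 49 reads, it was 1.63 points.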

How the data were processed

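The authors deposited 1 table per library with whole-number counts of A and G reads per site, separately for the sequences of D. melanogaster and D. sechellia, per the file headers, without normalization. The deposited percent column of each species equals the share of G reads, rounded to 1 decimal, and is 0 where a site has no reads, so it was used only for a check. Reads were aligned with BWA and positions are those of dm3, per the submitters' processing notes. Not given in the sources used here are the BWA version, any filter on sites and how reads were attributed to a species. D. sechellia replicate 1 lacks 1 site, taken as no reads. Total reads per library were 251870 to 375599, which limits precision at the least covered sites.

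From the counts, levels were computed for 9 libraries; those of Adar-mutant hybrids were not used. Sites averaging at least 1% in the libraries compared were fitted by quasi-binomial logistic regression (R 4.3.3), with Pearson dispersion squeezed on a coverage trend by limma 3.58.1 and held at 1 or more, a deviance F test, and Benjamini-Hochberg adjustment with a threshold of 0.05. The test was tried on simulated counts with known changes, and its rates of recovery and of false calls are not given here. Single values used exact permutation tests (SciPy 1.17.1). Named sites are those past the threshold with libraries that do not overlap, at most 2 per cluster, up to 12 per direction in F1 against D. sechellia and up to 6 elsewhere; others are said to be picked after their values were seen. No cluster held over 1 call, so clusters were not ranked. The sites and tests were chosen with earlier results of these data known. Alternatives were coverage and level minimums, other tests, a 5-point minimum, a replicate block, a fit of all 3 groups, thinned reads, classes of sites left out and each replicate left out. Subtraction of expected reads and a 5% level minimum for mean levels were added after seeing the data.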

Additional observations from a re-analysis of the deposited data

Results flagged for a closer look

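Reads of the other species' sequence appeared in libraries of a single species. In F1 and mixed libraries, D. melanogaster reads assigned in this way would count toward the level of the D. sechellia allele. At 15 of the 636 sites, over 5% of the reads of the D. melanogaster libraries had been assigned to the D. sechellia sequence, and at 3 of these over 50%. At 10 sites, over 5% of the reads of the D. sechellia libraries had been assigned to D. melanogaster. None of the 6 sites that differed between F1 and D. sechellia was among the 15, whose median absolute difference was 2.23 points (largest 13.1), against 0.983 points over all 636 sites. The 3 sites were 2L 12724897 (73.7%), with 17.8% ± 1.36 in F1 (SD, n = 3), 16.7% in the mixed parents and 17.3% ± 4.86 in D. sechellia (n = 2), and 2R 5122019 and 2R 5122024 (56.2% each), with 44.4% ± 6.36 and 59.4% ± 2.35 in F1 and 41.99% and 59.6% in the mixed parents, against 37.2% ± 2.37 and 52.5% ± 0.0359 in D. sechellia. The D. melanogaster sequence itself was nearly uncovered at these 3 sites: the least covered D. melanogaster library held 2 such reads at the first and 0 at the other two, so the 100% G read there in the remaining library gives no firm parent level.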

How the results depend on the processing

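The count of 6 sites for F1 against D. sechellia was 3 with no level minimum, 2 with a 5% minimum, 1 with limma, 24 with Fisher's exact test on pooled counts, which leaves out the spread between libraries, and 0 with thinned reads or without sites at 95% G in a parent. That class holds 3 of the 6. Leaving out single libraries gave 0 to 1. The count of 1 for mixed parents against D. sechellia was 2 with a 100-read minimum or all 3 groups in the fit, 8 with Fisher's exact test, and 0 with no level minimum, limma, thinned reads or without sites at 95% G in a parent; leaving out single libraries gave 0 to 1. F1 against mixed parents stayed at 0 under all 18 alternatives run. F1 against both together was 13 with Fisher's exact test and 1 with all 3 groups in the fit. Each of the 6 sites kept its direction in every alternative that tested it. The differences in mean level moved by less than the spread between replicates, but single libraries turned the sign of 2 of them: leaving out 1 library gave -1.07 to 0.0721 points for F1 minus D. sechellia, -0.431 to 0.648 for F1 minus mixed parents and -1.18 to -0.0281 for mixed parents minus D. sechellia. The labels give replicates only a number. Differences between replicates 1 and 2 correlated across sites at -0.407 for F1 and D. sechellia, -0.129 for F1 and mixed parents and 0.234 for mixed parents and D. sechellia. With a replicate block, 0 sites passed for F1 against D. sechellia and 0 for mixed parents against D. sechellia. The cause of these changes was not tested. Depth limits the D. sechellia allele most in F1 and mixed libraries.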
